A study of Mus musculus with 4 samples.

Results

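The fibroblast growth factor (FGF) receptors and the FGF ligands made by limb mesenchyme were examined in sorted hindlimb bud cells. The group held 9 genes of the 25239 in the count table, taken by gene symbol and not by a cutoff on values, with earlier results of these data known. They were the kinase receptors Fgfr1, Fgfr2, Fgfr3 and Fgfr4, the receptor-like Fgfrl1, and the ligands Fgf10, Fgf2, Fgf7 and Fgf18. All 9 had counts and all 9 passed the filter on low counts.

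RNA was sequenced from hindlimb cells of FVB mouse embryos at embryonic day 11.5, with 2 libraries of anterior cells positive for the fluorescent protein mCherry and 2 of central cells negative for it. Every embryo was labelled wild-type and carried the same reporter at the H11 locus, where mCherry is driven by the hsp68 promoter and a human ZRS, a limb enhancer of Shh, with the 404G>A change. The populations therefore differ in both position and reporter activity, and these cannot be told apart. The labels do not say how many embryos a library holds or whether replicates came from separate litters, so p-values measure only the spread between these libraries.

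In the limb bud, Fgf10 from the mesenchyme signals to the ectoderm through the IIIb splice form of Fgfr2, and the ectodermal ridge answers with Fgf8 and related FGFs. Those act back on the mesenchyme through Fgfr1 and the IIIc form of Fgfr2. Bound receptors switch on the Ras and MAP kinase relay, which induces ETS factors and feedback inhibitors such as Dusp6 and the Sprouty genes. Heparan sulphate chains on cell-surface proteoglycans are needed for FGFs to engage their receptors. Counts per gene do not separate splice forms, so IIIb and IIIc were not measured apart.

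Fgf10 and Fgf18 were the ligands with the largest differences in the 2 directions among the mesenchymal FGFs, and their upstream sequences are shown for context. Each run gives the 250 bases before the RefSeq start on build GRCm38.p6, 5′ to 3′ on the gene's strand, with CG pairs in capitals. The Fgf10 window lies at chr13:118714449-118714698 on the plus strand and the Fgf18 window at chr11:33147401-33147650 on the minus strand.
Fgf10: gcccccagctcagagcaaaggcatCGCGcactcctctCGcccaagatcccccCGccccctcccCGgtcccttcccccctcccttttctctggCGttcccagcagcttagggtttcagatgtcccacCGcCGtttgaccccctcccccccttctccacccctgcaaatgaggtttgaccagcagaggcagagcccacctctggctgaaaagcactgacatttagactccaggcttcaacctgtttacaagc
Fgf18: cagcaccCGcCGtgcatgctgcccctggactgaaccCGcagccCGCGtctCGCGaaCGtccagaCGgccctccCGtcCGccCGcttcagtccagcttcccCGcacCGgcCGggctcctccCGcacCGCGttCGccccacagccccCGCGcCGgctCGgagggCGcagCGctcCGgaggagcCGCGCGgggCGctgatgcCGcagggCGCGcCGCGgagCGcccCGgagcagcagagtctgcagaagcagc
The Fgf10 window held 8 CG pairs, more than 57% of the 32851 promoters in the RefSeq table, whose median was 6. The Fgf18 window held 37 CG pairs, more than 97.8% of them, at a GC content of 77.2% against 61.2% for Fgf10. Neither window held any of 4 motifs searched on both strands, namely CCGGAAG of ETS factors (in 6.91% of all promoter windows), the GLI core TGGGTGG (8.11%), the T-box letters AGGTGT (11.8%) and TATAAA (12.4%). A missing match says only that these letters are not in this window.

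The genes lie on different chromosomes except for 2 pairs. By RefSeq on GRCm38.p6, which is the mm10 build named in the submitters' processing notes, Fgfr1 spans chr8:25518759-25575718, Fgfr2 spans chr7:130162451-130266808, Fgfr3 spans chr5:33721724-33737068 and Fgfr4 spans chr13:55152818-55168759. Fgfrl1 spans chr5:108694229-108706950, Fgf10 spans chr13:118714699-118792573, Fgf2 spans chr3:37348477-37410106, Fgf7 spans chr2:126034658-126091185 and Fgf18 spans chr11:33116970-33147400. Whether counting used strand is not given in the sources used here, so counts of genes with antisense partners are uncertain. In GENCODE M21, exons of Fgf2 share 640 bases with the opposite-strand gene Nudt6, and those of Fgfr3 share 948 bases with an opposite-strand transcript. Fgf2 also shares 255 bases with the same-strand gene Gm43439, which is not in the count table. The shared stretch was 164 bases for Fgfr1 and 69 bases for Fgf10. Exons of Fgfr2, Fgfr4, Fgfrl1, Fgf7 and Fgf18 shared no base with another gene within these spans.

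Library totals ran from 30080925 to 33257383 counts, and a floor of 3 counts stood at 0.0902 to 0.0997 counts per 1 M counts (CPM). CPM values are scaled by TMM, a single factor per library (0.976 to 1.014) that does not remove differences in cell composition. The labelled tissue was checked against markers. The limb mesenchyme gene Prrx1 was at 716.6 and 675.9 CPM in the anterior libraries, against 681.2 and 641.3 in the central pair, and the hindlimb factors Tbx4 and Pitx1 were at 224.5 CPM or more in every library. The other 5 limb mesenchyme markers, Prrx2, Twist1, Msx1, Lhx2 and Lhx9, were called 1.77-fold to 9.56-fold higher in anterior cells, and the list summed to 3303 and 3286 against 1974 and 1808 CPM. Markers of other cell types differed between the populations. Summed over each marker list, myogenic genes measured 4.167 and 2.352 CPM in anterior against 142.9 and 142.2 in central libraries, and ectoderm genes 10.55 and 11.45 against 59.91 and 200.8. Chondrogenic genes measured 524 and 391.9 against 1704 and 1329 CPM, tendon and connective tissue genes 151 and 126.7 against 600.4 and 517.1, and endothelial genes 10.04 and 12.71 against 37.6 and 45.23. The sum of blood genes went the other way, at 3261 and 8308 CPM in anterior against 8.994 and 12.2 in central libraries. Hbb-y alone measured 1942 and 4867 CPM in the anterior libraries. Of 10 blood genes tested, 8 were called higher, against 10.7% of all genes, while Ptprc and Tyrobp were not called. The part of these cells in the results below was not tested.

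**Figure D1:**
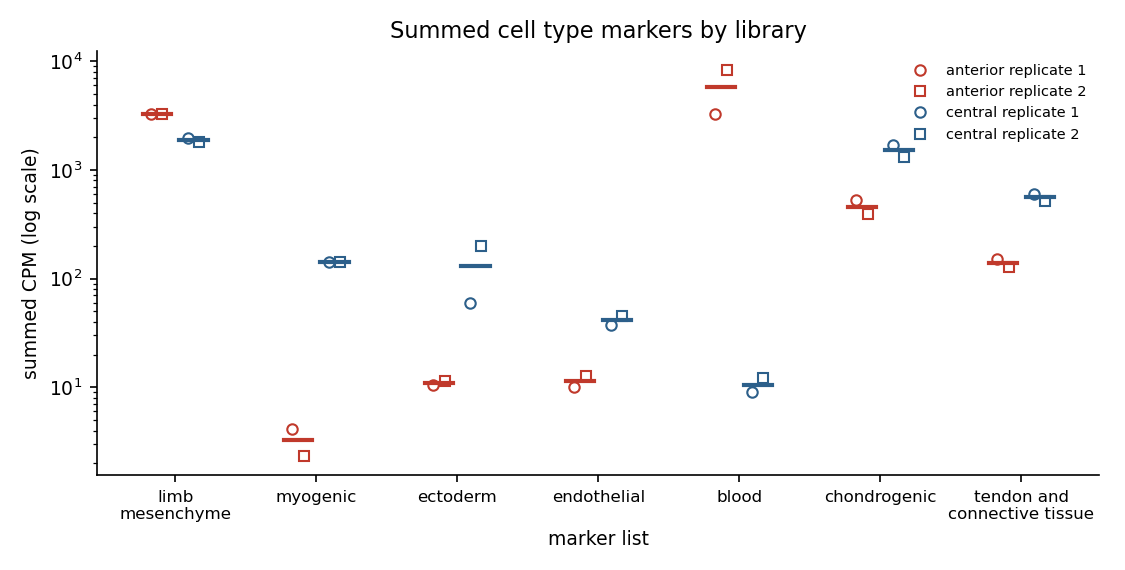
Summed TMM-scaled CPM (log axis) of 7 cell type marker lists in each library, with circles for replicate 1, squares for replicate 2 and bars for the group mean. Myogenic, ectoderm, endothelial, chondrogenic and tendon sums are lower in both anterior libraries, and blood and limb mesenchyme sums are higher.

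Of the 9 genes, 6 differed between the populations by edgeR's quasi-likelihood test at a Benjamini-Hochberg adjusted p-value under 0.05 over all genes tested. Fgf10 was higher in anterior cells, and Fgfr1, Fgfr2, Fgfr4, Fgfrl1 and Fgf18 were lower. Among all 14610 genes tested, 22.9% were called, 10.7% as higher and 12.3% as lower in anterior cells. The count over all genes fell from 3351 to 1941 without anterior replicate 2, where the lone anterior library is assumed to vary like the central ones, and the same numbers of the 9 genes were called in each direction. Changes of at least 2-fold were called for 3 of the 9 as lower, against 6.78% of all genes, and for 1 as higher, against 2.34%. The median log2 fold change was -0.633 over the 9 genes and -0.00866 over all genes tested. Every one of the 9 had anterior values entirely above or below the central ones, which also held for 63.5% of all genes tested. In bulk RNA of this kind, fewer cells of a type and less RNA per cell cannot be told apart.

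**Figure D2:**
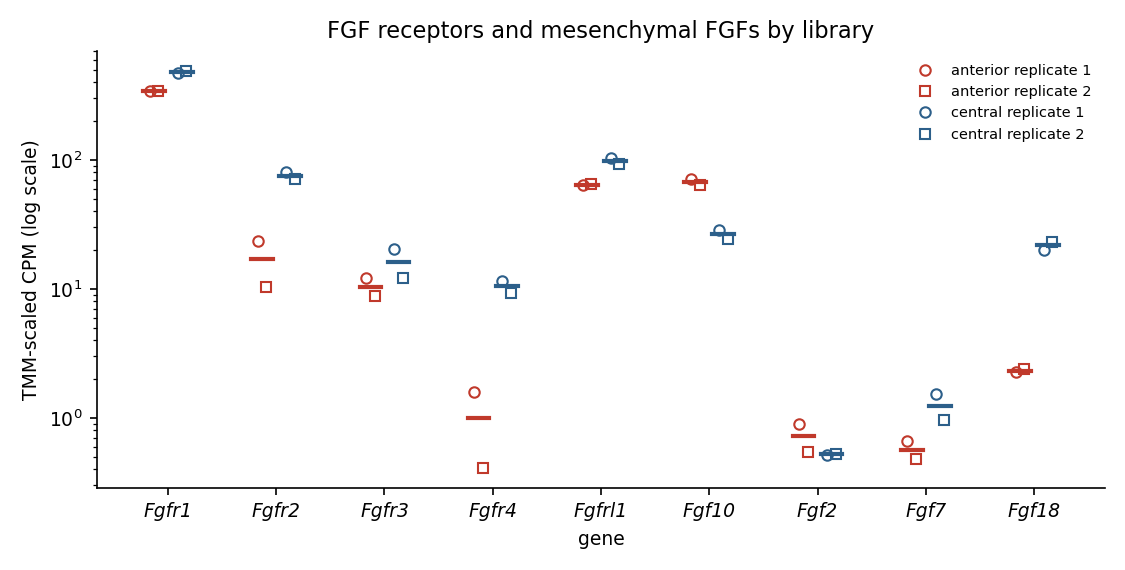
TMM-scaled CPM (log axis) of the 9 genes in each library, with circles for replicate 1, squares for replicate 2 and bars for the group mean. Fgf10 lies higher in both anterior libraries, whereas Fgfr2, Fgfr4 and Fgf18 lie several-fold lower there.

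Fgf10, the mesenchymal ligand that starts and maintains limb outgrowth, was the member that rose in anterior cells. It measured 70.94 and 63.78 CPM in the anterior libraries, against 28.74 and 24.5 in the central pair, from 1871 to 2366 counts in the former and 793 to 885 in the latter. Both anterior libraries stood far above both central ones, and replicates lay within 1.173-fold of each other. The means were 67.4 ± 5.06 and 26.6 ± 2.997 CPM (SD, n = 2 each), a 2.53-fold rise. On the log2 scale this was 1.34 ± 0.11 (SE), and edgeR gave an adjusted p-value of 5.17e-05. Of 4 regulators listed for Fgf10 in the hindlimb, Tbx4 and Pitx1 were not called, with edgeR adjusted p-values of 0.223 and 0.707, although Tbx4 was called lower without central replicate 1 (edgeR adjusted p-value 0.0281, log2 fold change -0.211). The LIM-homeodomain gene Isl1, which marks hindlimb progenitors, was lower, at 4.557 and 0.6818 CPM in anterior against 22.05 and 23.63 in central libraries (-3.09 ± 0.55 SE on the log2 scale; adjusted p-value 0.00443, edgeR), with a log2 fold change of -5.06 without anterior replicate 1 and -2.32 without anterior replicate 2. Tbx5, the forelimb counterpart of Tbx4, had 0 and 2 counts in the anterior pair against 82 and 44. Its central mean stood 21.2-fold above a floor of 3 counts per library, over central values of 2.663 and 1.359 CPM.

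Fgf18, a ligand known for its role in cartilage and bone formation and a partner of Fgfr3, moved the opposite way. It measured 2.249 and 2.386 CPM in the anterior libraries, against 20.16 and 23.29 in the central pair. The groups did not come near each other, and replicates lay within 1.155-fold. The means were 2.32 ± 0.10 and 21.7 ± 2.21 CPM (SD, n = 2 each), 9.37-fold lower in anterior cells. The log2 fold change was -3.23 ± 0.18 (SE), at an adjusted p-value of 7.63e-06 by edgeR. Most tendon and connective tissue genes tested moved with it. Scx, the tendon progenitor factor, measured 10.58 and 10.06 CPM in anterior against 101.9 and 103.7 in central libraries. Of the 9 genes listed, 8 were tested and 7 were called lower, against 12.3% of all genes, while Mkx was not called. The called genes of that list ranged from 1.43-fold lower for Tcf7l2 to 52.6-fold lower for Col12a1, apart from Kera. Kera had 0 counts in each anterior library and passed the filter on low counts only through the central libraries.

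The ligands Fgf7 and Fgf2 had few counts. Fgf7, which binds the IIIb form of Fgfr2 on epithelia, had 22 and 14 counts in the anterior pair, against 47 and 31 in the central one. Its log2 fold change was -1.12 (95% interval -2.32 to 0.09) and it was not called (edgeR adjusted p-value 0.171). Fgf2, a ligand without a classical secretion signal, had 30 and 16 counts in anterior and 16 and 17 in central libraries. These groups were separated by less than 1 count's worth of depth, and a fold between 0.561 and 3.42 lay within the 95% interval (log2 fold change 0.47, edgeR adjusted p-value 0.61). The 2.53-fold rise seen for Fgf10 lies within that interval.

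Fgfr1, the main FGF receptor of limb mesenchyme, was the most abundant member in CPM and per kb of exon. It measured 342 and 344.9 CPM in the anterior libraries, against 471.7 and 492.6 in the central pair. Replicates lay within 1.044-fold in both groups, so that a modest difference stood well clear of their spread. The log2 fold change was -0.49 ± 0.06 (SE), or 1.40-fold lower in anterior cells, at an adjusted p-value of 0.000696 by edgeR. Fgfrl1, a receptor that binds FGFs but lacks the tyrosine kinase domain, fell by a similar amount. Its values were 63.86 and 64.94 CPM against 103.7 and 93.51, or -0.61 ± 0.08 (SE) on the log2 scale (adjusted p-value 0.000895 by edgeR).

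Fgfr2, the receptor for Fgf10 in ectoderm and also a marker of condensing mesenchyme, was 4.42-fold lower in anterior cells. It measured 23.66 and 10.36 CPM in the anterior libraries, against 80.37 and 71.08 in the central pair. The anterior libraries differed from each other 2.28-fold, yet the higher of them stayed below both central libraries. The log2 fold change was -2.14 ± 0.29 (SE), at an adjusted p-value of 0.00107 by edgeR, and it was -2.87 without anterior replicate 1 and -1.68 without anterior replicate 2. Ectoderm genes were called lower in 11 of 12 tested, against 12.3% of all genes. Most of them, such as Krt5, Trp63 and Wnt6, passed the filter on low counts only through the central libraries. Their sum was 10.55 and 11.45 CPM in anterior and 59.91 and 200.8 in central libraries. A link of Fgfr2 to ectoderm cells was not tested. Chondrogenic genes were called lower in 7 of 10 tested, against the same share of all genes. Among them was Sox9, the cartilage master regulator, at 152.9 and 112 against 330.4 and 309.2 CPM. Another, Matn4, had 50 and 9 counts in the anterior libraries against 1012 and 338 in the central ones. Matn4 passed the filter on low counts only through the central libraries, so its call as lower was favoured in advance.

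Fgfr4, known from muscle progenitors, had the largest fall of the receptors. It had 53 and 12 counts in the anterior pair against 357 and 301 in the central pair, or 1.589 and 0.4091 against 11.59 and 9.299 CPM. The groups were far apart, although the anterior libraries differed 3.89-fold. It was 10.2-fold lower in anterior cells (-3.36 ± 0.47 SE on the log2 scale; adjusted p-value 0.00131, edgeR), and the log2 fold change was -4.66 without anterior replicate 1 and -2.71 without anterior replicate 2. Myogenic markers were called lower in 7 of 7 genes, against 12.3% of all genes, and their sum was 43.7-fold lower. All of these markers but Met passed the filter on low counts only through the central libraries, so their calls as lower were favoured in advance. The muscle precursor gene Lbx1 had 4 and 3 counts and Pax3 had 12 and 8 in the anterior libraries, and Myog and Pax7 had 0 in both. In the central libraries Lbx1 measured 25.46 and 25.95 CPM and Pax3 16.63 and 20.82.

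Fgfr3, the receptor best known as a brake on cartilage growth, was not called. It measured 12.08 and 8.761 CPM in the anterior libraries, against 20.29 and 12.11 in the central pair. The higher anterior value and the lower central value were almost the same, and the central libraries differed 1.68-fold. The log2 fold change was -0.63 ± 0.25 (SE), at an adjusted p-value of 0.112 by edgeR. Without central replicate 2 it was -0.957 and called (edgeR adjusted p-value 0.00524). With all 4 libraries it was also called when no filter beyond 1 count was set (0.033) and with the replicate block (0.0136).

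**Figure D3:**
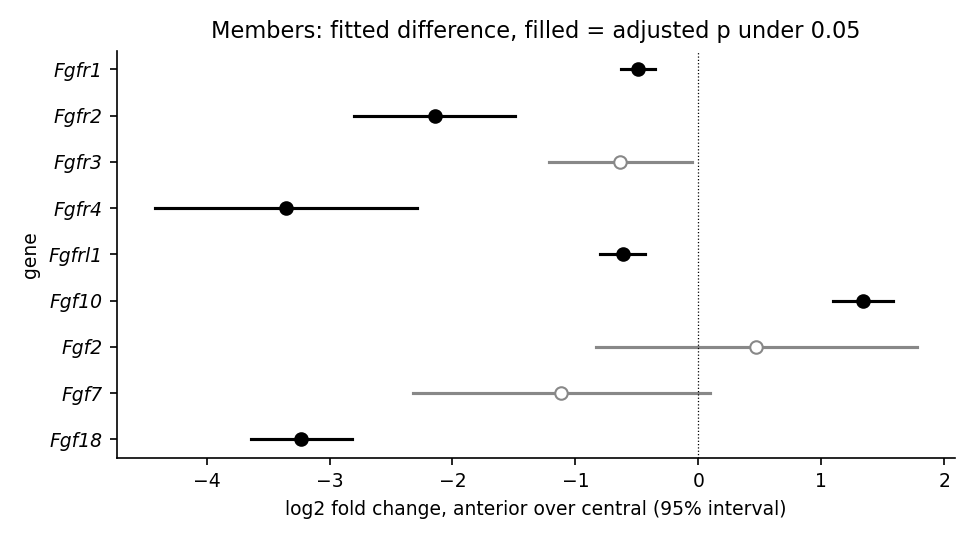
Log2 fold change of anterior over central cells for the 9 genes, with 95% intervals from the edgeR fit. Filled points passed the adjusted p-value of 0.05, and open points for Fgfr3, Fgf2 and Fgf7 did not.

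Levels of different genes were compared as CPM per kb, dividing by the union of annotated exons in GENCODE M21. In anterior cells the order ran from Fgfr1 at 34.63 and 34.93 CPM per kb and Fgfrl1 at 22.95 and 23.34 to Fgf10 at 15.42 and 13.86. Fgf18, Fgfr2 and Fgfr3 followed at means of 1.952, 1.647 and 1.456, and neighbours among these overlapped between libraries. Fgfr4 and Fgf7 also overlapped, at means of 0.282 and 0.175, and Fgf2 came last at 0.107. In central cells Fgf18 came after Fgfr1 and Fgfrl1, at 16.98 and 19.62 CPM per kb, above Fgfr2 at 7.782 and 6.882 and Fgf10 at 6.246 and 5.325. Fgf10 thus exceeded Fgf18 in both anterior libraries and was below it in both central ones. In central cells Fgfr4 and Fgfr3 overlapped, at means of 2.949 and 2.263. With the longest transcript as the length, Fgfr2 and Fgfr3 ranked above Fgf18 by mean in anterior cells, and Fgfr3 above Fgfr4 in central cells. Library values still overlapped between Fgfr3 and Fgf18 in anterior cells and between Fgfr3 and Fgfr4 in central cells.

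The make-up of the kinase receptors shifted with these differences. Of the summed level per kb of the 4 kinase receptors, Fgfr1 made up 88.7% and 93.7% in the anterior libraries, against 77.5% and 81.7% in central cells. The share of Fgfr2 was 5.87% and 2.69% in anterior against 12.6% and 11.3% in central libraries. With the longest transcript as the length it was 6.98% and 3.21% against 15.1% and 13.4%. The share of Fgfr4 was 1.15% and 0.31% against 5.31% and 4.3%, and with the longest transcript as the length it was 0.625% and 0.169% against 2.91% and 2.34%, below Fgfr3 in every library. Shares of Fgfr3 overlapped, at 4.32% and 3.28% against 4.6% and 2.77%. The groups did not overlap for Fgfr1, Fgfr2 or Fgfr4. These shares are a description of transcript levels and carry no test.

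**Figure D4:**
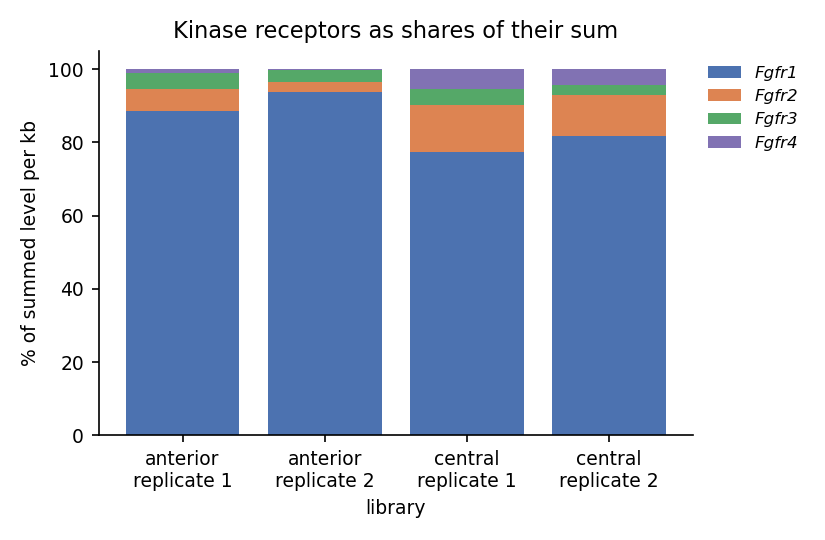
Share of each kinase receptor in the summed level per kb of exon of the 4, for each library, in percent. Fgfr1 takes 88.7% and 93.7% in anterior cells and 77.5% and 81.7% in central cells.

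The other genes of the pathway numbered 79, of which 65 were tested, with 15 called higher and 16 called lower in anterior cells, against 10.7% and 12.3% of all genes. These lists, like the 9 genes, were drawn up with earlier results of these data known. All 3 tested ridge ligands were lower, with a median log2 fold change of -5.26 against -0.00866 over all genes. Fgf8 and Fgf9 passed the filter on low counts only through the central libraries, so their calls as lower were favoured in advance. Fgf8, the principal ridge signal, measured 0.2399 and 0.06818 CPM in anterior against 5.747 and 29.22 in central libraries (edgeR adjusted p-value 0.0012). Its central libraries differed 5.09-fold, and the epidermal gene Krt5 differed in the same direction, at 9.774 and 41.58 CPM. The log2 fold change of Fgf8 was -6.75, and was -7.92 without anterior replicate 1, -7.49 without central replicate 1 and -5.15 without central replicate 2. Fgf8 was not called with limma-voom (adjusted p-value 0.119). Fgf9, another ectodermal FGF, was steadier at 0.3898 and 0.2727 against 12.6 and 13.31 CPM (-5.26 ± 0.29 SE on the log2 scale; adjusted p-value 7.24e-06, edgeR). Fgf17 was at 0.5397 and 0.4772 against 1.104 and 2.997 CPM (edgeR adjusted p-value 0.0376), a call that was lost without central replicate 2 (0.327, with the log2 fold change at -1.11), without either anterior library (0.0787 and 0.109) and with limma-voom (0.0863). Fgf4, a ridge FGF, had 28 counts in central replicate 2 and 0 in every other library, and was not tested.

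Among 14 other FGF genes, 4 were tested and all 4 were called, 1 higher and 3 lower, against 10.7% and 12.3% of all genes. Fgf5 and Fgf12 passed the filter on low counts only through the central libraries, so their calls as lower were favoured in advance. Fgf13, which encodes an intracellular FGF homologue that does not act through FGF receptors, was higher, at 27.94 and 22.87 CPM in anterior against 8.475 and 6.302 in central libraries (1.78 ± 0.18 SE on the log2 scale; adjusted p-value 0.000213, edgeR). Both anterior values exceeded both central ones by far. The lower ones, Fgf5, Fgf11 and Fgf12, named because they are the whole of that count, had at most 72 counts in any library. Fgf11 was lost under 3 of the other scalings and tests and without 3 of the 4 libraries in turn, and Fgf12 also without 3 of the 4 (edgeR adjusted p-values up to 0.246 and 0.0812). The count of 4 fell to 2 without anterior replicate 2 or without central replicate 1, and to 1 among genes with a mean count of at least 50. Fgf5 had 0 counts in each anterior library, against 18 and 46, and its central mean stood 10.6-fold above a floor of 3 counts per library. Fgf15, an endocrine-type FGF, had 2 and 0 counts against 8 and 2 and was not tested. A count of at most 3 in every library was found for 4 of the 18 ligands outside the group of 9.

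Of the proteoglycans, co-receptors and binding proteins, 14 were tested, 2 were called higher and 5 lower (median log2 fold change -0.33), against 10.7% and 12.3% of all genes. The glypican Gpc3, a growth regulator, was the most abundant in CPM of those called, at 662.6 and 618.8 CPM in anterior against 1152 and 1070 in central libraries (-0.79 ± 0.07 SE on the log2 scale; adjusted p-value 9.37e-05, edgeR). Gpc4 had a larger fall, from 22.24 and 19.65 to 8.545 and 3.477 CPM, with the anterior libraries 2.46-fold apart (log2 fold change -1.79, edgeR adjusted p-value 0.00544; -2.59 without anterior replicate 1 and -1.29 without anterior replicate 2). Flrt3, a transmembrane protein that binds FGF receptors, was at 70.31 and 66.33 against 97.28 and 123 CPM (edgeR adjusted p-value 0.00262). The Klotho co-receptors Kl and Klb had at most 10 counts in any library and were not tested.

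Of 11 enzymes that build or trim heparan sulphate, 1 was called higher and 2 lower (median log2 fold change -0.0868), a share near the 22.9% called among all genes, and 5 were called without central replicate 2. The 6-O-sulphotransferase gene Hs6st2 was at 19.88 and 16.53 CPM in anterior against 51.69 and 53.82 in central libraries (-1.53 ± 0.11 SE on the log2 scale; adjusted p-value 3.21e-05, edgeR). Its relative Hs6st1 was lower by less, with a log2 fold change of -0.54 ± 0.09 (SE). The chain polymerase gene Ext1 was higher, at 115.4 and 104.2 against 79.46 and 69.29 CPM (edgeR adjusted p-value 0.00279).

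Most genes of the relay downstream of the receptors did not pass the test. Of 20 tested, 2 were called higher and 1 lower, against 22.9% of all genes called, and the median log2 fold change was 0.0494. The docking protein gene Gab1 had a log2 fold change of -0.44, and Nras and Shc1, encoding a Ras protein and an adaptor, had 0.31 and 0.24, with edgeR adjusted p-values of 0.0177, 0.0117 and 0.0345. None of these 3 calls held without anterior replicate 2, where the adjusted p-values were 0.118, 0.0542 and 0.245. Without central replicate 2, 5 relay genes were called. Without anterior replicate 1, Nras and Shc1 were not called either (0.0989 and 0.122). Shc1 was also lost without central replicate 1 (0.0666) and when libraries were scaled by their totals alone or by upper quartiles (0.0548 and 0.0565).

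**Figure D5:**
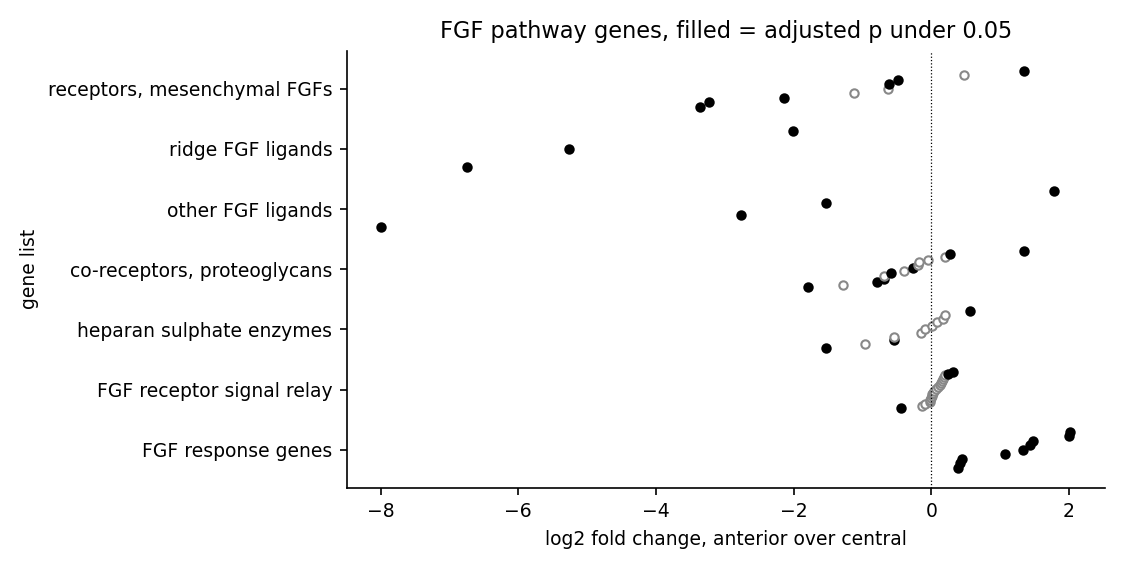
Log2 fold change of anterior over central cells for each tested gene of 7 FGF pathway lists, filled where the adjusted p-value was under 0.05; the height within a list only spreads the points. The relay genes cluster around 0, the ridge ligands lie below 0 and all 9 response genes lie above 0.

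The transcriptional response genes of the pathway were all higher in anterior cells, where Fgf10 was higher and 4 of the 5 receptors were lower. All 9 were called higher, against 10.7% of all genes, with a median log2 fold change of 1.33. The Sprouty inhibitor Spry1 measured 128 and 162.6 CPM in anterior against 35.95 and 35.68 in central libraries, and Spry4 measured 146.4 and 169.8 against 34.48 and 44.12. The MAP kinase phosphatase gene Dusp6 was at 535.5 and 656.4 against 212.5 and 230.1 CPM. Every value of these genes in anterior cells exceeded every value in central cells. The receptor antagonist gene Il17rd had a log2 fold change of 1.07, the ETS factors Etv4 and Etv5 had 1.48 and 1.33, and Spry2 had 0.39, with edgeR adjusted p-values of 0.000136, 3.72e-06, 9.13e-06 and 0.00923. The count of 9 fell to 7 without anterior replicate 2, where Spry2 and Spred2, a Sprouty-related inhibitor, lost their calls (edgeR adjusted p-values 0.0788 and 0.12).

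For each called member, the 3 genes most like it over the 4 libraries were found among 10605 genes with a mean of at least 5 CPM, as the smallest Euclidean distance between log2 CPM profiles centred on their means. With 4 libraries this likeness is a description. Fgf10 was closest to Nek7, Tspan18 and Klhl29, at distances of 0.0608, 0.0903 and 0.121. Nek7, a mitotic kinase gene, measured 127.4 and 120.2 CPM in anterior against 52.44 and 43.93 in central libraries. Fgf18 was closest to Cxcl14, Limch1 and Rspo2, at distances of 0.22, 0.251 and 0.284. The chemokine gene Cxcl14 was at 8.905 and 8.045 against 74.68 and 81.4 CPM, and Rspo2, a Wnt signal enhancer, at 1.679 and 1.5 against 15.2 and 21.16. Fgfr2 was closest to Rarb, a retinoic acid receptor gene, then to Ppargc1a and the glypican Gpc4, at distances of 0.109, 0.327 and 0.397. Rarb measured 3.778 and 1.602 CPM against 13.93 and 12.14, the first anterior value again above the second. The genes most like Fgfr4 included Foxp2 and Pcdh10, at distances of 0.28 and 0.306. Fgfr1 was closest to Parva, Pik3r3 and Rgl2 and Fgfrl1 to Anxa2, Pxmp4 and Fchsd1, all at distances of 0.0508 or less.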

How the data were processed

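The authors deposited whole-number read counts per gene symbol, not normalized, for 4 libraries. The submitters' processing notes name STAR 2.7.9a, HTSeq, DESeq2 3.16 and mm10, without roles. Per the labels' protocols, sorted cells were snap-frozen, RNA was taken with an RNeasy kit and libraries were sequenced in pairs. The annotation and strandedness are not given in the sources used here. Between 72.8% and 75.6% of counts from 1 to 10 were even, a pattern seen when both mates are counted, so halved counts were tried. Columns were matched to titles by domain name and number. Genes were kept by filterByExpr and tested with edgeR 4.0.16 (R 4.3.3), TMM scaling and the quasi-likelihood F test, unblocked, with 2 residual degrees of freedom and a threshold of 0.05. A standard error is the absolute log2 fold change over the square root of F. CPM before taking log2 for likeness had 0.5 added. Other settings were DESeq2 1.42.0, limma-voom 3.58.1, other scalings and filters, the replicate block, and leaving out each library. The fit was tested on simulated data. Named were the 9 genes, 12 further fixed FGF genes, up to 3 called genes per list (mean of at least 5 CPM, no overlap) and the 3 most alike genes per called member, of which 1 is not reported here. The members and lists were chosen with earlier results of these data known. Promoters matched 8 of the 9 genes.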

Additional observations from a re-analysis of the deposited data

How the results depend on the processing

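Of the 9 genes, 6 kept their call and direction under every scaling, test, filter, block, halving and left-out library that gave them a value. Fgfr3 was the exception: it was called with no filter beyond 1 count (-0.628, edgeR adjusted p-value 0.033), with the replicate block (-0.613, 0.0136) and without central replicate 2 (-0.957). Its log2 fold change ranged from -0.957 to -0.215 over the fits that left out 1 library. Fgf2 and Fgf7 were never called; both fell under the filter of a mean count of 50, and Fgf2 under the default filter on halved counts. Replicate numbers come only from the titles and replicate differences in the 2 populations correlated at 0.064 across genes, so they were not taken to pair the libraries; the block moved the count over all genes to 3586 and changed no other call among the 9. Leaving out 1 library moved that count between 1941 and 3510. The median was -0.887 over the 8 genes tested with halved counts, where Fgf2 was left out. Over all 9 genes it was -0.957 to -0.538 without 1 library.

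Filters changed which list genes were tested; for the other moves below the cause was not tested. With limma-voom, 1 ridge ligand was called. Ridge medians were -6 without a filter and -6.02 with a mean count of at least 50. For the other FGF ligands, a mean count of at least 50 left 1 gene called and turned the median to 1.77; it was -1.87 without a filter and -1.51 with halved counts, and -2.44 to -1.92 with 2 to 3 called without 1 library. The regulators of Fgf10 had a median of -1.87 with limma-voom and of -0.15 with 1 gene called at a mean count of at least 50, and -2.45 to -1.25 without 1 library. Pitx1, near 0, ranged from -0.125 to 0.0411 without 1 library. Without 1 library, heparan sulphate enzymes had 3 to 5 called and the relay 0 to 5. With the longest transcript, levels per kb rose for every member (12 of 18 values by more than the replicate SD), Fgfr1 from 34.8 to 68.1 in anterior cells. With 2 libraries per group, the fold of genes near 3 counts in both anterior libraries has no upper bound.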
